A study of Mus musculus with 16 samples.

Results

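The mitochondrial ribosomal protein genes were taken as every gene of the deposited table whose symbol is Mrpl or Mrps followed by a number and at most 1 letter. This rule found 77 of 31053 genes, of which 50 code for proteins of the large subunit, 26 for proteins of the small subunit, and 1, Mrps36, carries the name but is known as a component of a Krebs-cycle dehydrogenase. The genes were measured by mRNA sequencing of C2C12 cells, a mouse myoblast line that fuses into multinucleated myotubes, in 4 groups of 4 samples. The groups were WT myoblasts, WT myotubes, Fam134bKO myoblasts and Fam134bKO myotubes, and the labels call the 4 samples of a group biological replicates. All cells were grown in DMEM with 10% FBS, and the myotubes formed in that medium at confluence. The knockout line was made with lentiviral CRISPR-Cas9 and guides against Fam134b, an ER-phagy receptor gene, and kept as an antibiotic-selected population, so the genotype comparisons set 1 derived line against its parent.

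Mitochondria keep their own ribosome, which translates the 13 mRNAs of mitochondrial DNA into membrane subunits of the respiratory chain and the ATP synthase. Its RNAs are made inside the organelle, but all of its proteins are encoded in the nucleus, translated in the cytosol and imported. About the same protein set serves every tissue, and a part of it has bacterial homologues while the rest is particular to mitochondria. Skeletal muscle relies on oxidative phosphorylation (OXPHOS) more as it matures, so the questions were how the mRNAs of this ribosome stood in myotubes against myoblasts, and whether that difference depended on Fam134b.

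Each sample held between 1484750 and 3287461 gene reads, and the shallowest were replicates 2 and 4 of the knockout myotubes, with 1790524 and 1484750. Fam134b itself had a log2 fold change of -2.86 in KO against WT myoblasts (SE 0.255, limma adjusted p = 2.95e-08) and of -2.46 in KO against WT myotubes (SE 0.255, limma adjusted p = 9.85e-07), without overlap between genotypes. The summed level of 6 myotube markers (Myog, Myh3, Actc1, Ckm, Tnnt3 and Acta1) ranged over 630 to 1059 normalized counts in WT myoblasts, 14218 to 20326 in the WT myotubes, 8.34 to 16.6 in KO myoblasts and 7774 to 10789.7 in KO myotubes. That of 4 cycling-cell markers (Mki67, Top2a, Ccnb1, Cdk1) was 3049 to 3746, 1668 to 2732, 2362 to 4161 and 711 to 1201 in the same order, and 6 markers of adipocytes and osteoblasts summed to at most 2.59 in any sample. In bulk RNA, fewer cells of a kind and less RNA per cell cannot be told apart.

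The promoters of the members were read first, since the fold changes below refer to them. RefSeq promoters (GRCm38.p6, 250 bases before to 50 after each start) were given for 68 of the 77 genes, as 74 windows. The NRF1 run CGCATGCG was in 9.46% of these windows against 1.87% of all 32851 promoters and 4.07% of the promoters of tested genes. The ETS run CCGGAAGT, searched on both strands as were all runs, was in 16.2% against 3.89% and 8.39%, and the YY1 run AAGATGGC in 16.2% against 2.75% and 4.66%. NRF1 and ETS-family factors are textbook regulators of nuclear genes for mitochondria. Promoters of cytosolic ribosomal protein genes held the ETS run as often (16.2%), and those of nuclear OXPHOS genes held the NRF1 run in 13.4% and the ETS run in 7.46%. The YY1 run was in 13.4% of the nuclear OXPHOS promoters and in 10.8% of the cytosolic ribosomal protein promoters, so it was not particular to the members. No gene had both the NRF1 and the ETS run, 19 had either, and 49 had neither. The ERR run TCAAGGTCA was in none of the windows, against 0.423% of all promoters, and that says only that these letters are absent from the windows. Shown are the 150 bases before the start of 4 members that were called lower on differentiation in at least 1 genotype and carry an NRF1 run (Mrpl22 and Mrpl9) or an ETS run on either strand (Mrps27 and Mrpl27), with the run in capitals, 5′ to 3′ on the gene's strand.
Mrpl22, chr11:58171514-58171663, plus strand: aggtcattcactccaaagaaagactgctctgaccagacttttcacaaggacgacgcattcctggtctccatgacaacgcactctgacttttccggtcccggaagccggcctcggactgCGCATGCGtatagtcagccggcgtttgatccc
Mrpl9, chr3:94443186-94443335, plus strand: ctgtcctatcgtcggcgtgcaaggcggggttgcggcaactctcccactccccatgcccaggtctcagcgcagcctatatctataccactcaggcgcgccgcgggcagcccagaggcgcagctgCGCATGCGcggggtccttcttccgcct
Mrps27, chr13:99344636-99344785, plus strand: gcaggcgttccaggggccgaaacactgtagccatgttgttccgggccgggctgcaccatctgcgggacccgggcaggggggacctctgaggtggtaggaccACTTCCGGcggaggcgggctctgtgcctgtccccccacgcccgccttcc
Mrpl27, chr11:94653641-94653790, plus strand: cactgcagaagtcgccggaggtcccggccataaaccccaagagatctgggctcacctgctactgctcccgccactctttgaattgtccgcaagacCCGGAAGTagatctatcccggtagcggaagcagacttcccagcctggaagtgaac
In these 4 stretches the run lies towards the 3′ end, at positions -32, -27, -49 and -55 from the start in the order printed. Mrpl51, the other member called lower with such a run, was not printed. Its ETS run lies farther from the start, at -90. Of the 33 members called lower on differentiation in at least 1 genotype, 28 had a promoter and 5 of these (17.9%) held an NRF1 or ETS run. By comparison 13 (35.1%) of the 37 with a promoter among the other 41 did.

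On differentiation of WT cells, 19 mitoribosomal genes were called lower and 0 were called higher. The 77 genes together took 0.885%, 0.865%, 0.974% and 1.001% of the gene reads in the WT myoblasts and 0.617%, 0.812%, 0.726% and 0.732% in the WT myotubes. On this share every myotube sample lay below every myoblast sample, and the mean fell from 0.931% ± 0.0664 to 0.722% ± 0.0800 (SD, n = 4). On the authors' scaling, which the tests below use, the summed normalized counts of the members overlapped, with 23572 in WT myotube replicate 2 against 22989 in WT myoblast replicate 2. The Wilson 95% interval of each share reached at most 0.0129 percentage points to either side, covering counting error only, below the SD between samples in every group. The WT myotube sample with the highest share, replicate 2, also had the highest cycling-marker sum of its group, 2732 against 1668 to 1881 in the other 3. The other groups did not show this. WT myoblast replicate 1 had the highest sum of its group (3746) and a share of 0.885%. In both KO groups the sample with the highest sum had the lowest share. These were KO myoblast replicate 2 (4161 and 0.778%) and KO myotube replicate 1 (1201 and 0.546%). The part of cycling cells in the result was not tested.

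Of the 77 genes, 74 reached 10 normalized counts in at least 4 of 16 samples and were tested among 10767 genes. In WT myotubes 19 of them (25.7%) were called lower than in WT myoblasts, meaning a Benjamini-Hochberg adjusted p below 0.05 with limma over all tested genes, and 0 were called higher. Among all tested genes 9.16% were called lower and 13.8% higher. The groups did not overlap for 20 members, all lower, that is 27.0% of them against 12.0% of all tested genes. The median log2 fold change of the members was -0.32, against -0.01 for all tested genes, and 62 of the 74 were negative. Quantile normalization moved the share of higher calls among all called genes from 60.1% to 49.7%. It gave 24 members lower (32.4%, against 13.3% of all tested genes) and 0 higher. The count depended on single samples: it was 5 without WT myotube replicate 1, 6 without WT myoblast replicate 3, and 8 without either WT myoblast replicate 4 or WT myotube replicate 4, with 0 called higher each time. Fewer of all genes were called lower in these fits too, and without WT myotube replicate 1 the shares were 6.76% of the members and 4.98% of all tested genes.

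**Figure D1:**
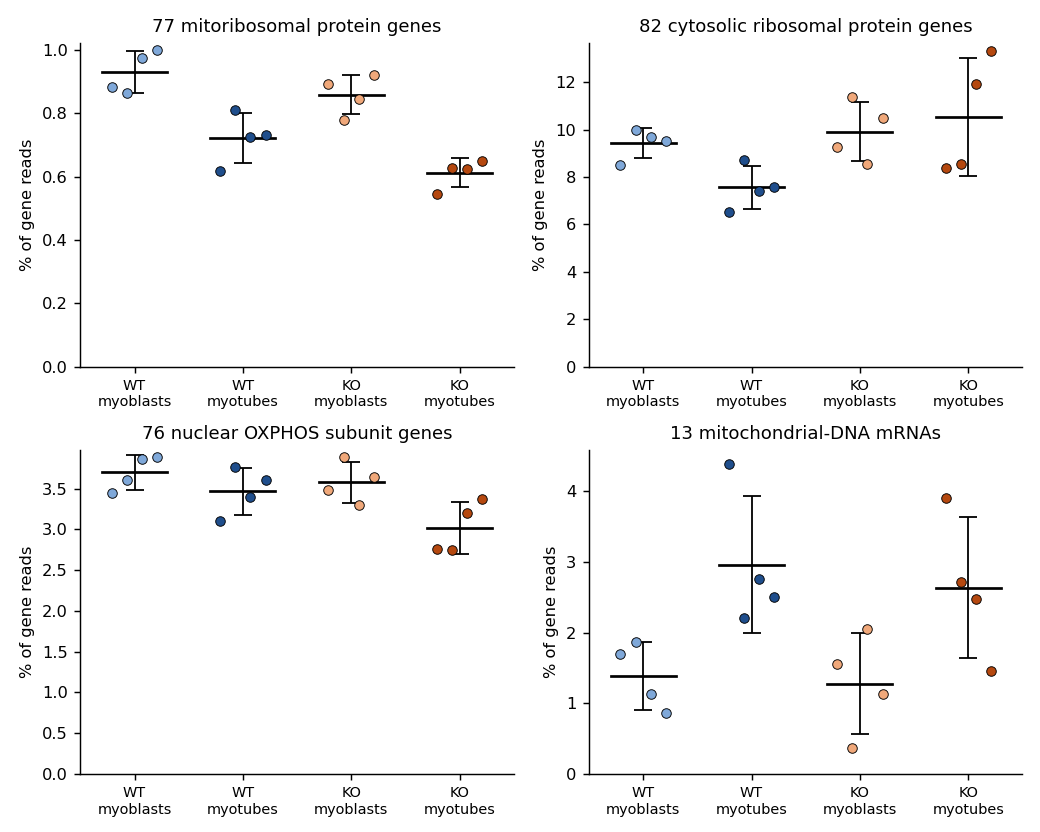
Share of all gene reads, in percent, taken by 4 gene lists in each of the 16 samples (points), with the group mean (bar) and SD (whiskers), axes from 0. The mitoribosomal share was 0.865% to 1.001% in WT myoblasts and 0.546% to 0.649% in KO myotubes, while the share of the 13 mitochondrial-DNA mRNAs was higher in myotubes on average.

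Within the large subunit 14 of 49 tested genes were called lower and within the small subunit 5 of 25, where 9.16% of all tested genes were. The medians were -0.32 and -0.35. In the large subunit 11 of 30 genes for proteins with bacterial homologues fell (36.7%), against 3 of 19 mitochondria-specific ones (15.8%). The small subunit did not show this split, with 3 of 16 (18.8%) against 2 of 9 (22.2%). No difference between these parts was tested, and the split by homologues is given for WT cells only. By position, 3 of 4 tested genes of the L7/L12 stalk fell, the flexible arm that recruits translation factors: Mrpl11 (-0.64), Mrpl12 (-0.79) and Mrpl54 (-0.71). Around the exit of the peptide tunnel 3 of 6 fell, Mrpl22, Mrpl45 (-0.64), which anchors the ribosome to the inner membrane, and Mrpl47 (-0.75). In the central protuberance 1 of 6 fell, Mrpl46 (-0.75).

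Mrps6, a small-subunit protein with a bacterial homologue, had the most negative fold change of the called members. It was at 1092, 1079, 1320.0 and 1276 normalized counts in the WT myoblasts and at 257, 906, 461 and 495 in the WT myotubes. The groups did not overlap, although myotube replicate 2 came close, and the log2 fold change was -1.30 (SE 0.250, limma adjusted p = 0.000747). The gene lies on chr16:92058270-92112227 (GRCm38, plus strand) and shares 19.9% of its exon bases with Slc5a3 and Gm49711 on the same strand, none of them in its last 500 bases.

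Mrpl22, whose protein lines the exit tunnel, was far less abundant, at 49.8, 48.2, 56.0 and 39.2 normalized counts in WT myoblasts against 20.7, 23.4, 16.7 and 16.8 in WT myotubes. Its log2 fold change of -1.27 (SE 0.449, limma adjusted p = 0.0451) came from 17 to 56 reads a sample, and the call was lost under 14 of 29 other settings, among them leaving out any WT myoblast sample, WT myotube replicate 1, 3 or 4, or KO myoblast replicate 1, 3 or 4. The gene is on chr11:58171661-58179565, and the stretch with the NRF1 run printed above ends at its start.

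Mrps27, a pentatricopeptide-repeat protein particular to the mitochondrial small subunit, was at 233, 189, 227 and 204 normalized counts in WT myoblasts and at 44.0, 147, 138 and 97.1 in WT myotubes. All 4 myotube values were lower (log2 fold change -1.13, SE 0.296, limma adjusted p = 0.00895). It lies on chr13:99344786-99415562, plus strand.

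**Figure D2:**
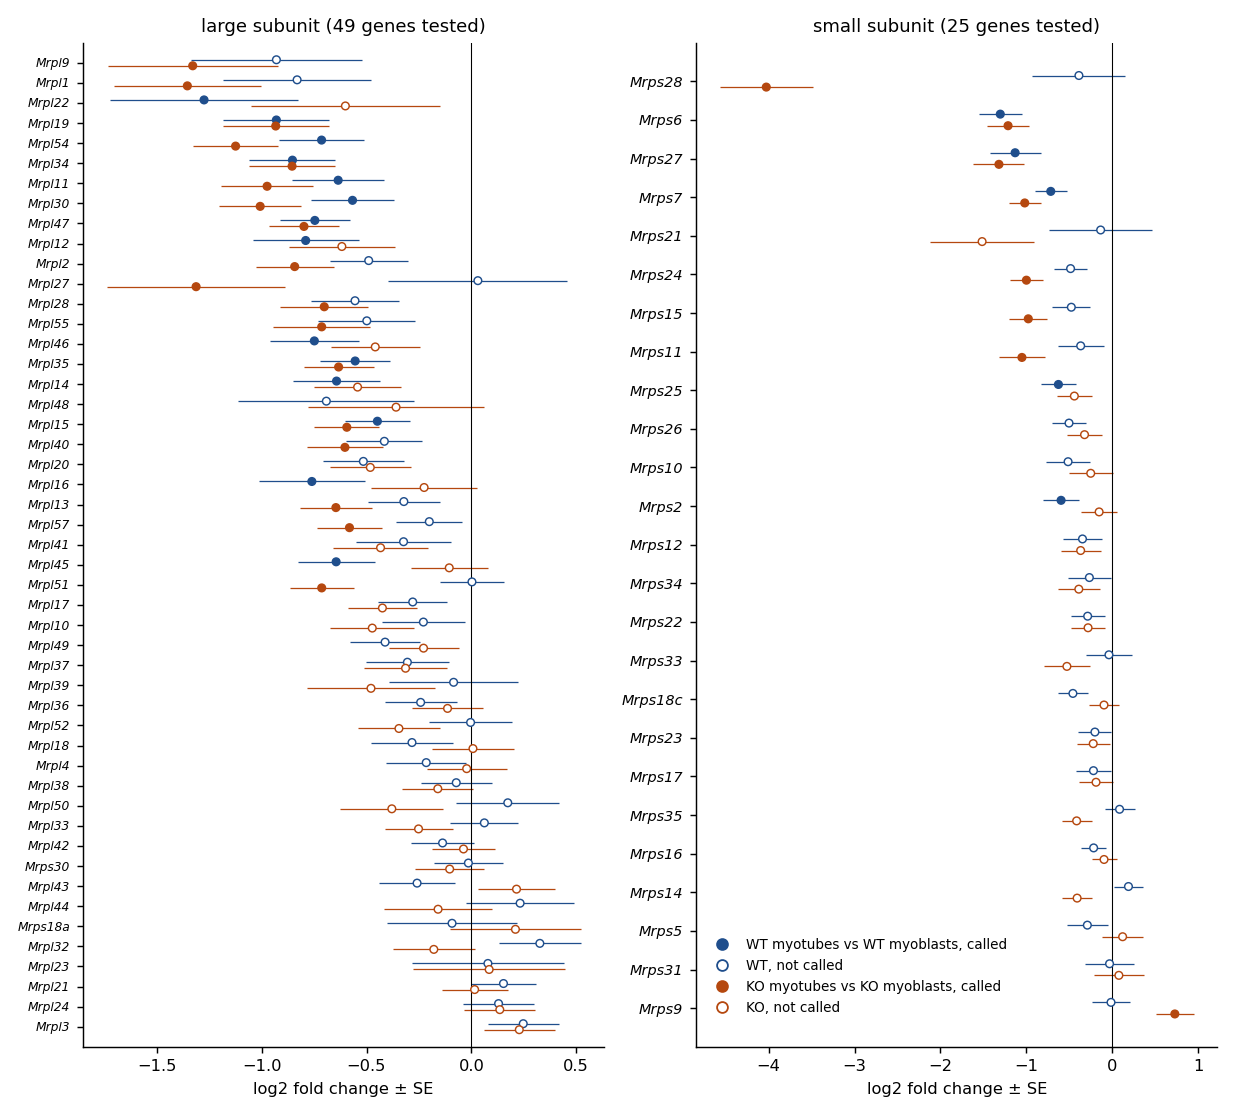
Log2 fold change with its SE, on differentiation, of the 49 large-subunit and 25 small-subunit genes tested, in WT (blue) and KO cells (orange); filled points are called at an adjusted p below 0.05 and genes are sorted by the mean of both values. Most points lie left of 0 in both panels, and Mrps28 in KO cells stands apart at -4.03.

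In the knockout line the same comparison gave lower levels of 25 members and a higher level of 1. The share of gene reads on the 77 genes was 0.893%, 0.778%, 0.846% and 0.921% in KO myoblasts and 0.546%, 0.628%, 0.625% and 0.649% in KO myotubes, without overlap, and the mean fell from 0.859% ± 0.0622 to 0.612% ± 0.0452 (SD, n = 4). Of the 74 tested members 33.8% were called lower, against 16.1% of all tested genes, and Mrps9 alone was called higher, against 17.3% of all tested genes. The groups did not overlap for 23 lower members, or 31.1%, against 13.1% of all tested genes. The median was -0.42 (all genes -0.02), and 64 members were negative. Without both shallow KO myotube samples, an alternative chosen after the data were seen, the count was 29 lower and 0 higher. That is 39.2% of the members lower, against 15.1% of all tested genes.

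The large subunit had 18 of 49 genes lower and the small subunit 7 of 25, where 16.1% of all tested genes were lower. The medians were -0.46 and -0.39. Of the stalk, Mrpl11 (-0.97) and Mrpl54 (-1.12) fell, while Mrpl12 (-0.62, adjusted p = 0.0638 with limma) was not called. Mrps6 fell again, by 1.21 on the log2 scale (SE 0.250, limma adjusted p = 0.00081), from 821, 734, 847 and 972 normalized counts in KO myoblasts to 278, 419, 351 and 418 in KO myotubes. Mrps27 went from 115, 99.6, 142 and 119 to 32.9, 74.4, 38.7 and 50.0 (log2 fold change -1.32, SE 0.296, limma adjusted p = 0.00175). In both genes the KO myotubes were below every KO myoblast sample.

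Mrpl1, a protein of the L1 stalk from which spent tRNA leaves, was at 27.1, 16.6, 19.1 and 22.5 normalized counts in KO myoblasts and at 14.5, 4.38, 6.30 and 7.99 in KO myotubes. The log2 fold change was -1.35 (SE 0.352, limma adjusted p = 0.00534), resting on 3 to 15 reads in the KO myotube samples. It is on chr5:96209493-96266727. Mrpl9 (-1.33, SE 0.406, limma adjusted p = 0.0156) and Mrpl27 (-1.31, SE 0.426, limma adjusted p = 0.0219), whose promoters are printed above, were lower too. For Mrpl9 the KO groups overlapped, and it averaged only 33.7 normalized counts over all samples. Of the 31-base words of Mrpl27's last 500 exon bases, 35.4% also occur in other genes. Mrps9, a small-subunit protein with a bacterial homologue on chr1:42851233-42905683, went the other way. Its values were 90.1, 136, 104 and 115 in KO myoblasts and 141, 212, 175 and 216 in KO myotubes, a log2 fold change of 0.73 (SE 0.220, limma adjusted p = 0.0146). That call was lost without KO myoblast replicate 1 and without both shallow samples.

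Mrps28, a small-subunit protein with a bacterial homologue, had the largest difference of any member. It had 51, 15, 24 and 45 reads in the KO myoblasts and 1, 0, 3 and 0 in the KO myotubes, so no KO myotube sample was above the limit of 3 reads that a count of 0 allows. In WT cells it had 20, 14, 24 and 48 reads in myoblasts and 16, 9, 17 and 46 in myotubes, which overlap. Only the KO myotubes stood apart. Summed over samples and set against the libraries' scaling, 4 reads in KO myotubes against 135 in KO myoblasts gave a ratio of 0.0418 (exact 95% interval 0.0112 to 0.110, counting error only), and 4 against 88 in WT myotubes gave 0.0594 (0.0159 to 0.158). The fitted log2 fold change was -4.03 (SE 0.541, limma adjusted p = 7.33e-06), a value that depends on the pseudocount of 1. The gene, on chr3:8802146-8923918 (minus strand), shares no exon base with another annotated gene, and none of the 31-base words of its last 500 exon bases occurs in another gene's transcripts. Among all 10767 tested genes, 5 including Mrps28 had at most 3 reads in every KO myotube sample and more than 3 in every other sample.

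**Figure D3:**
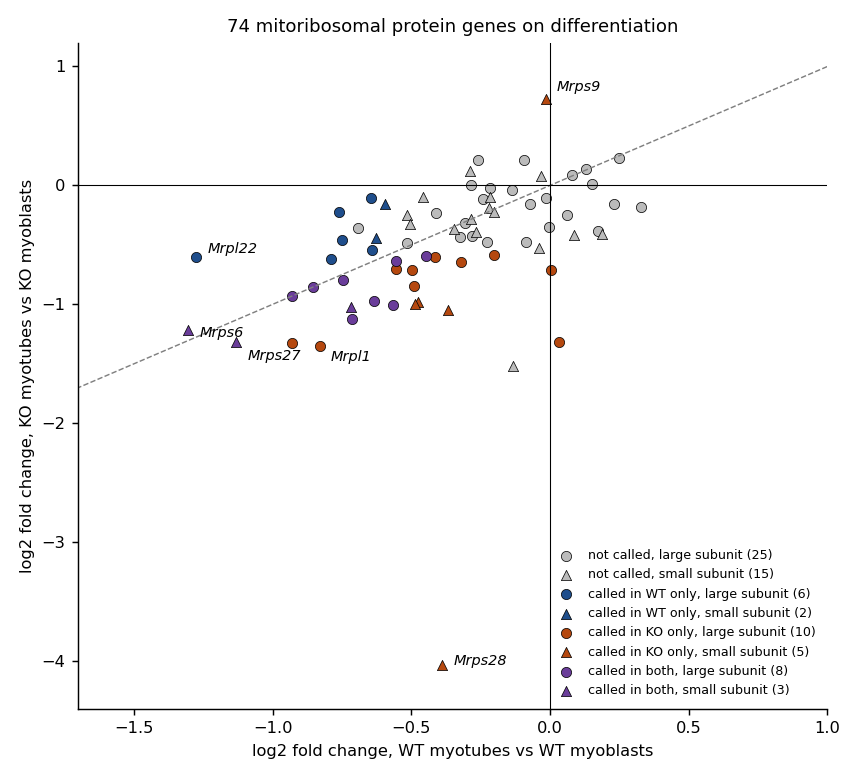
Log2 fold change of each of the 74 tested members on differentiation in WT (horizontal) and in KO cells (vertical), with large-subunit genes as circles, small-subunit genes as triangles, colours by call, and the dashed line marking equal values; the axes have different scales. 56 members are negative in both genotypes and 45 lie below the dashed line, and no such counts were made over all tested genes.

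The differentiation comparisons of WT and of KO cells use different samples and can be set side by side. 11 members were called lower in both genotypes, 8 in WT alone, 14 in KO alone and 41 in neither. 56 of the 74 were negative in both, 4 positive in both and 14 of unlike sign. The matching counts over all tested genes were not made, so these counts do not show whether the members stand out. The members lower in both included the stalk genes Mrpl11 and Mrpl54, the small-subunit genes Mrps6, Mrps7 and Mrps27, and Mrpl34 and Mrpl47 of the large subunit. A call in only 1 genotype is not a difference between genotypes, which the interaction of genotype and differentiation tests directly. That test called 1 member, Mrps28, lower and 0 higher (1.35% of the members), against 1.48% and 1.97% of all tested genes. An unadjusted p below 0.05 was found for 5 members. That count stands without the share of all tested genes and does not show that the members stand out. The interaction for Mrps28 was -3.64 on the log2 scale (SE 0.765, limma adjusted p = 0.00873), the most negative of the 10767 genes. By p-value the next members were Mrpl51 at -0.72 (SE 0.217, limma adjusted p = 0.0744) and Mrps14 at -0.60 (SE 0.244, limma adjusted p = 0.198), neither of them called. Mrpl51, a large-subunit protein particular to mitochondria, was at 256, 203, 269 and 264 normalized counts in WT myoblasts, 229, 269, 263 and 229 in WT myotubes, 314, 255, 286 and 357 in KO myoblasts and 167, 191, 205 and 172 in KO myotubes. Its KO myotube values lay below those of the KO myoblasts and of the WT myotubes without overlap, but overlapped the WT myoblasts, and the WT groups overlapped each other. The median interaction over members was -0.08, against -0.04 for all genes.

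**Figure D4:**
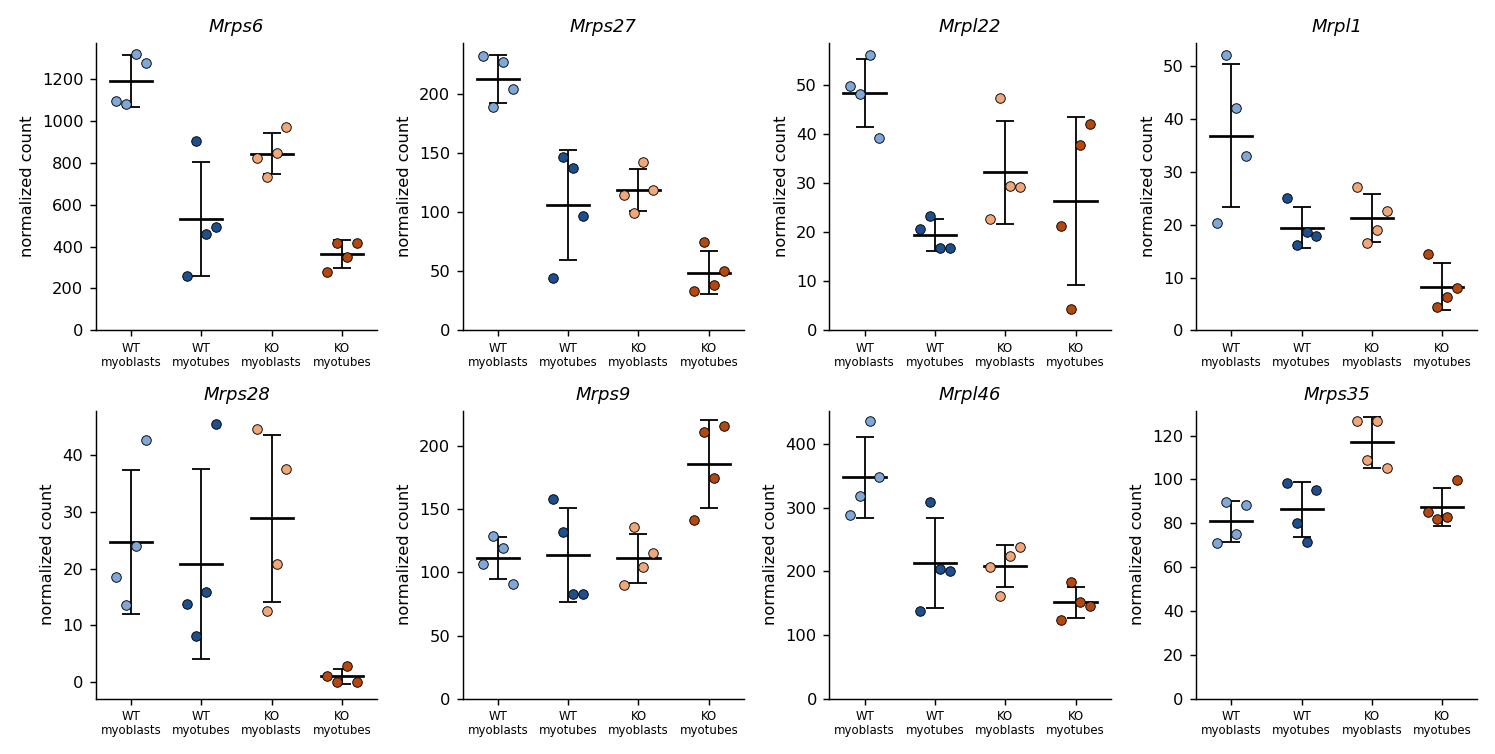
Normalized counts of 8 members in each sample (points), with the group mean (bar) and SD (whiskers). The Mrps28 values of the KO myotubes are at 0 to 2.70, and the Mrps9 values of the KO myotubes at 141 to 216.

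Between genotypes in myoblasts, 2 of 74 members were called, Mrps35 higher and Mrpl46 lower (1.35% each), below the 7.26% and 8.50% of all tested genes called higher and lower. The groups did not overlap for 3 higher and 8 lower members, 10.8% of members for the latter, against 12.8% and 14.0% of all tested genes, and the median was -0.14 (all genes -0.01). Mrpl46, a protein of the central protuberance that faces the small subunit, was at 289, 318, 436 and 348 normalized counts in WT myoblasts and at 207, 162, 225 and 239 in KO myoblasts (log2 fold change -0.74, SE 0.211, limma adjusted p = 0.0193), a call lost without WT myoblast replicate 3 or KO myoblast replicate 2. It starts back to back with another member, Mrps11: their RefSeq starts on opposite strands of chromosome 7 are 42 bases apart, and Mrps11 had a log2 fold change of -0.07 (SE 0.268, limma adjusted p = 0.907). Mrps35, a mitochondria-specific small-subunit protein, was at 71.0, 89.7, 75.1 and 88.2 in WT and at 127, 109, 127 and 105 in KO myoblasts (log2 fold change 0.52, SE 0.174, limma adjusted p = 0.0436). The Mrps35 call was lost under 13 of 30 other settings, leaving out any of these 8 samples or WT myotube replicate 4 among them. Mrps27 was lower in every KO myoblast sample than in any WT one, at 99.6 to 142 against 189 to 233, but was not called (-0.84, SE 0.296, limma adjusted p = 0.0579). Over the samples left out in turn the count ran from 0, without WT myoblast replicate 3 or KO myoblast replicate 2, to 5, without WT myotube replicate 1, so it rests on single samples, and it was 10 (13.7%, against 24.5% of all tested genes) when only these 8 samples were fitted.

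In myotubes, 13 members were lower and 2 higher in the knockout than in WT, in samples that also enter the differentiation comparisons. That is 17.6% of the members lower against 13.7% of all tested genes, and 2.70% higher against 9.74%, with a median of -0.22 (all genes -0.07). The groups did not overlap for 5 members, all lower, or 6.76% against 10.8% of all tested genes. Mrps28 was again the most negative (-3.46, SE 0.541, limma adjusted p = 9.62e-05). Mrpl1 was at 25.04, 16.2, 18.6 and 17.8 normalized counts in WT myotubes, above the KO myotube values given before (-1.23, SE 0.352, limma adjusted p = 0.0149), a call lost without both shallow samples, with quantile normalization, with only these 8 samples and with voom. Mrpl11, at the base of the L7/L12 stalk, was at 235, 454, 324 and 314 in WT and at 173, 190, 201 and 194 in KO myotubes (-0.77, SE 0.221, limma adjusted p = 0.015), a call lost without WT myotube replicate 2. The genes called higher were Mrps9 (0.74) and Mrps5 (0.74), both small-subunit proteins with bacterial homologues, and in both the groups overlapped. The number of calls was 2 when only these 8 samples were fitted, and it fell to 4 without WT myotube replicate 3, 7 without WT myotube replicate 4 or KO myotube replicate 1, and 8 without WT myotube replicate 2. In each of these 5 fits the share of members called lower, 2.78% to 9.46%, was below that of all tested genes, 8.30% to 13.5%. Without WT myotube replicate 1 it went the other way, with 21 calls and 25.7% of the members lower, against 13.2% of all tested genes. Myotube markers were lower in KO than in WT myotubes, as given above, and the cycling markers too; their part in these differences was not tested.

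**Figure D5:**
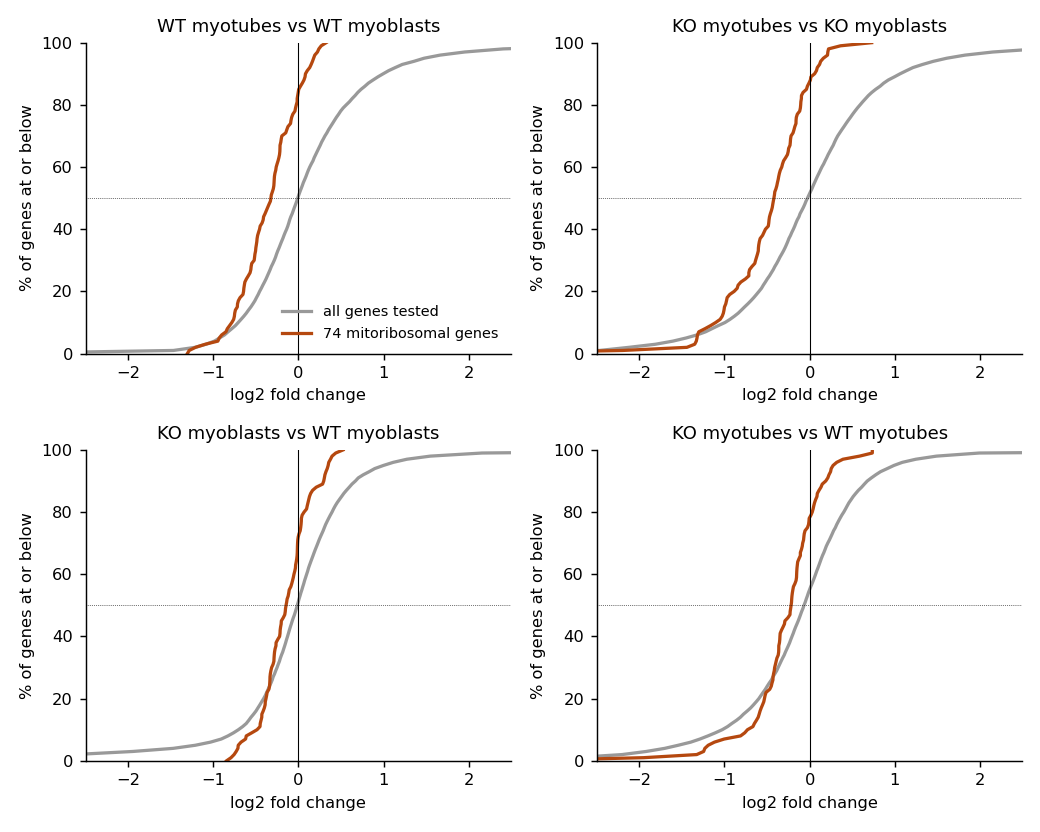
Cumulative distribution of the log2 fold change for the 74 tested members (orange) and all 10767 tested genes (grey) in 4 comparisons; the dotted line marks the median and values beyond 2.5 in either direction lie outside the panels. The members' curve lies left of the grey one over most of its length in the panels for differentiation, with medians of -0.32 and -0.42, and nearer to it between genotypes.

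The mitoribosomal proteins that carry other names were looked at beside the members. Of 6 such genes 5 were tested. Dap3, the GTP-binding protein of the small subunit, was lower in WT myotubes (-0.61, limma adjusted p = 0.0322), and Ict1, a peptidyl-tRNA hydrolase built into the large subunit, and Gadd45gip1 were lower in KO myotubes than in KO myoblasts (-1.15 and -1.18). Chchd1, a small-subunit protein, was lower in the knockout at both stages (log2 fold changes -0.71 in myoblasts and -0.58 in myotubes). In myoblasts it was at 722, 588, 606 and 762 normalized counts in WT and 357, 564, 381 and 357 in KO, without overlap.

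The mRNAs that this ribosome translates had higher shares in myotubes on average. The 13 mitochondrial-DNA mRNAs took 0.854% to 1.87% of the gene reads before and 2.20% to 4.39% after differentiation of WT cells, without overlap. In KO cells they took 0.364% to 2.05% before and 1.46% to 3.90% after, with overlap. Of the 11 tested, 3 were called higher in WT myotubes (COX1, ND4 and ND5) and 6 in KO myotubes (these and ND1, ND6 and CYTB), and 0 lower. Among all tested genes 13.8% and 17.3% were called higher. The medians were 1.40 and 1.25. In KO cells the groups overlapped for every called gene except ND1. In WT cells the groups did not overlap for 9 of the 11, all higher, against 1730 of all 10767 tested genes, but did for COX1. ND5, a complex I subunit, was at 356 to 997 normalized counts before and 1820.0 to 2722 after differentiation of WT cells (log2 fold change 1.77, SE 0.375, limma adjusted p = 0.00178).

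Of the nuclear genes for OXPHOS subunits, 1 of 75 was higher (Cox7a1, 1.48) and 1 lower (Atp5g1, -1.09) in WT myotubes, with a median of -0.08. That is 1.33% each way, against 13.8% and 9.16% of all tested genes. In KO myotubes 3 were higher, where 17.3% of all tested genes were, and 18 lower (24.0%, against 16.1% of all tested genes), with a median of -0.32. The 18 lower genes included Sdhd, a membrane anchor of complex II, at 0 to 5.81 normalized counts in KO myotubes and 23.2 to 69.1 in KO myoblasts. Of the cytosolic ribosomal protein genes, 11 of 78 (14.1%) were lower and 0 higher in WT myotubes, with a median of -0.41 and 71 of the 78 negative. The groups did not overlap and were lower for 25.6% of them, against 12.0% of all tested genes. The one-sided fall in WT cells was thus not particular to the mitoribosomal genes. In KO myotubes 7 were higher and 10 lower (12.8%, below the 16.1% of all tested genes), with a median of 0.04. Between myotubes, 20 of the cytosolic genes were higher and 3 lower in KO than in WT, where 9.74% and 13.7% of all tested genes were. The interaction test called 2 cytosolic genes, Rpl27 (1.24) and Rpl37 (1.45), where 1.97% of all tested genes were called higher. It called 0 nuclear OXPHOS genes (9 at an unadjusted p below 0.05, without the share of all tested genes beside it).

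Genes that help to build and run the mitoribosome were counted in the same way. In WT myotubes 0 of 14 mitochondrial translation factors was called (1 at an unadjusted p below 0.05), 1 of 24 assembly factors was higher (Ngrn, 0.73) and 1 of 17 mitochondrial tRNA synthetases was higher (Nars2, 1.00). Among all tested genes 13.8% were called higher in that comparison. In KO myotubes, where 16.1% of all tested genes were lower, 4 translation factors (28.6%) were lower, among them Guf1, an elongation factor (-1.003), and Taco1, the translational activator of COX1 (-1.12). There 4 tRNA synthetases (23.5%) were lower too, among them Sars2 (-0.97), and 1 assembly factor, Rnmtl1, a methyltransferase of the large-subunit rRNA (-1.47). Between KO and WT myotubes 4 translation factors (28.6%, against 13.7% of all tested genes) were lower, with Gfm2, which helps recycle the ribosome, at -1.16. Of 10 tested regulators of mitochondrial biogenesis 0 was called on differentiation in either genotype (1 at an unadjusted p below 0.05 in each). Gabpa, the ETS-domain subunit of NRF2, was lower in KO than in WT myotubes (-1.35, limma adjusted p = 0.0299), at 26.1, 2.92, 35.1 and 15.99 against 47.5, 36.0, 35.3 and 41.6 normalized counts.

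The 3 members left untested were Mrpl53, Mrps18b and Mrps36. Mrpl53 had 0 reads in all 16 samples, where a count of 0 allows up to 3 reads, and 88.0% of its exon bases are shared on the same strand with Ccdc142os and Gm42688. Mrps18b averaged 3.64 normalized counts, and all of its last 500 exon bases are overlapped on the other strand by Gm16279. Mrps36 averaged 3.43. Over all members, 32 share at least 1 exon base with another gene, and reads from such bases may not have been assigned to the member.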

How the data were processed

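RNA was sequenced by the authors from 16 samples with a Digital mRNA-seq service (NEGEDIA). Reads were trimmed, aligned to mm10 with STAR 2.6.0a and counted with HTSeq. The deposited values are log2(normalized count + 1), and the tool behind the normalization is not given in the sources used here. Groups came from the sample titles, since the genotype field reads unknown. Within each sample 100.0% of values above 0 were whole multiples of 1 read (tolerance 0.001), so reads and depth (1484750 to 3287461) were recovered. Counts themselves were not used in edgeR or DESeq2.

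Genes with 10 or more normalized counts in at least 4 samples were fitted with limma 3.58.1 (R 4.3.3, trend, 4 group means, pseudocount 1), with Benjamini-Hochberg adjustment over 10767 genes. Contrasts were myotubes against myoblasts in each genotype, KO against WT at each stage, and their interaction. Annotation was GENCODE M21, and promoters RefSeq GRCm38.p6. Named were the 3 most negative and 3 most positive called members whose groups did not overlap, per contrast (with under 3 calls, the 3 of smallest p), and the 2 leading calls of other lists. Mrpl9, Mrpl27, Mrps5, Mrps11 and the examples by subunit position were chosen after their values were seen. Members and lists were chosen with earlier results of these data known. Besides the fits of only the 8 samples compared, 13 other settings and 16 leave-one-out fits were run.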

Additional observations from a re-analysis of the deposited data

Results flagged for a closer look

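The small-subunit genes took 0.1442% of the gene reads in KO myotube replicate 1, against 0.1684%, 0.1687% and 0.1689% in the other 3 KO myotube samples. The gap to its nearest neighbour was 0.983 of the range of the group, and it was 1 of 56 groups of 4 looked at, of which chance marks about 1 in 20.

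Mrps28 had a different change on differentiation in the 2 genotypes, with an interaction of -3.64 on the log2 scale (limma adjusted p = 0.00873). It rests on 1, 0, 3 and 0 reads in the KO myotubes and 9 to 51 reads in each other sample.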

How the results depend on the processing

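Of the members, WT differentiation gave 19 calls, with 0 higher in any setting named here. There were 5 calls at an adjusted p under 0.01 (6.76% lower, against 3.63% of all tested genes). With a log2 change of 1 in either direction also required there were 3 (4.05% lower, against 2.93% of all tested genes). Sample weights gave 36, where 43.5% of all tested genes were called, and leaving out 1 sample gave 5 to 27. KO differentiation gave 26, then 10 at the fold limit, all lower (13.5% of the members, against 8.48% of all tested genes called lower). Leaving out 1 sample gave 23 to 32 there. KO against WT myoblasts gave 2, then 1 with quantile normalization, 4 with the replicate block, 10 with only the 8 samples compared, 0 at the stricter p and at the fold limit, 22 (29.7%, against 35.0% of all tested genes) with sample weights, 4 with voom on recovered reads, 5 without both shallow KO myotube samples (chosen after seeing the data) and 0 to 5 leaving out 1 sample. KO against WT myotubes gave 15, then 2 with only those 8 samples, 1 at the stricter p and 5 at the fold limit, all lower. These are 2.78%, 1.35% and 6.76% of the members, below the 8.30%, 7.31% and 8.38% of all tested genes called lower. Leaving out 1 sample gave 4 to 21. The interaction gave 1, then 0 with a minimum of 50, which removes Mrps28, 2 with total scaling, 3 with sample weights and 1 to 2 leaving out 1 sample. Except where a setting's construction shows it, the cause was not tested. Median log2 fold changes leaving out 1 sample were -0.43 to -0.24, -0.47 to -0.33, -0.17 to -0.12, -0.33 to -0.13 and -0.23 to 0.01 in the same order.

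Among the mitochondrial-DNA mRNAs that were not called on KO differentiation, the sign turned for ATP6 (-0.069) and ND3 (-0.62) with sample weights, for ND2 (-0.15), ATP6 (-0.096) and ND3 (-0.44) without KO myoblast replicate 2, and for ATP6 (-0.072) without KO myotube replicate 2; leaving out 1 sample, ND2 ranged up to 0.88, ATP6 up to 1.155 and ND3 up to 0.74. Same-numbered samples did not deviate together (mean correlation 0.0330, from -0.223 to 0.369, and 7 of 16 samples closest to their own number), so the numbers were not taken as pairs. With the replicate block the other counts were 18, 28, 14 and 1. Depth limits members with few reads, since 3 reads are worth 2.49 to 5.99 normalized counts.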
